A study of Mus musculus with 12 samples.

Results

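The Ms4a genes (membrane-spanning 4-domains, subfamily A) were examined in sorted brain cells of mice that carried GFP-marked hematopoietic donor cells. The 8 members, Ms4a7, Ms4a14, Ms4a6b, Ms4a6c, Ms4a6d, Ms4a4a, Ms4a4c and Ms4a1, were taken by symbol from the 31054 features counted, which list 19 Ms4a genes in all, so 11 further Ms4a genes were set beside them. Single-cell libraries were made from sorted CD45+ CD11b+ CX3CR1+ cells of 4 treated C57BL/6J mice, 1 female and 1 male for each route, intravenous (i.v.) or intracerebroventricular (i.c.v.). Each mouse gave a GFP+ and a GFP- library, so there were 2 libraries for each route and sort and 4 for each sort. All 4 recipients had busulfan conditioning before they received lineage-negative bone marrow hematopoietic stem and progenitor cells that carried the GFP lentiviral vector LVV.GFP, and the donors of the cells used for sequencing were male. All recipients later also received total bone marrow cells that had not been transduced, so the GFP- sort can hold donor cells without the vector. The brains were taken 12 to 13 months after dosing according to the design, whereas 22 to 28 weeks is the age on the labels. Treatment-naive C57BL/6J material of 8 to 12 weeks of age gave 4 more libraries, labelled microglia, neurons, astrocytes and blood, with 1 library each.

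Ms4a proteins cross the membrane 4 times, and several take part in signalling complexes of immune cells. Ms4a1 encodes CD20, the B cell antigen, and Ms4a2 encodes the beta chain of the high-affinity IgE receptor. The MS4A4A and MS4A6A region of the human cluster is known for variants linked with Alzheimer's disease and with soluble TREM2, the shed form of a microglial lipid receptor. In the mouse brain Ms4a7 is widely used as a marker of macrophages at the borders of the brain and of macrophages that derive from bone marrow, as opposed to microglia, which arise in the yolk sac.

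The genes lie in 1 cluster on chromosome 19 (GRCm38, GENCODE vM21), where the 8 members span 355.175 kb, from 11249675 to 11604849. That span holds 12 protein-coding genes, of which 11 are Ms4a genes. Ms4a14 (chr19:11301249-11314454, minus strand) and Ms4a7 (chr19:11321039-11336146, minus strand) are neighbours, 6584 bp apart. Ms4a4c (chr19:11404770-11427246) and its non-member neighbour Ms4a4b (chr19:11443553-11467055), and Ms4a6c (chr19:11469366-11482192) and Ms4a6b (chr19:11516512-11531256), lie on the plus strand on the other side of Ms4a4a. Ms4a6d (chr19:11586604-11604849) and Ms4a1 (chr19:11249675-11266241) are on the minus strand at the 2 ends.

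Windows of 250 bases before the first transcript base were available for 17 of the 19 Ms4a genes and for 6 of the 8 members in RefSeq (GRCm38.p6). They are shown for Ms4a7 and Ms4a14, the neighbours with large GFP differences, and for the pairs Ms4a6c with Ms4a6b and Ms4a4c with Ms4a4b, whose levels are compared further on. The windows were read 5′ to 3′ on the strand of the gene and stop before annotated exon bases, at chr19:11336147-11336396 for Ms4a7, chr19:11314455-11314704 for Ms4a14, chr19:11469118-11469365 for Ms4a6c, chr19:11518309-11518452 for Ms4a6b, chr19:11407411-11407660 for Ms4a4c and chr19:11443308-11443552 for Ms4a4b. In GENCODE the Ms4a4c and Ms4a6b windows fall inside the gene, in introns, because other transcripts start further upstream. Capitals mark GGAAGT or its reverse complement ACTTCC, letters found in sites of ETS factors such as PU.1, and GAAAGTGAA or its reverse TTCACTTTC, letters found in interferon-responsive elements.
Ms4a7: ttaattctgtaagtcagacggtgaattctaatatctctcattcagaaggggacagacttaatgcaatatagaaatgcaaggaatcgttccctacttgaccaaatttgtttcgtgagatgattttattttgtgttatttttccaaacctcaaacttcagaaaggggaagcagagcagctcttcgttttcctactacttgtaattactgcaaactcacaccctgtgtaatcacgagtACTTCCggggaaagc
Ms4a14: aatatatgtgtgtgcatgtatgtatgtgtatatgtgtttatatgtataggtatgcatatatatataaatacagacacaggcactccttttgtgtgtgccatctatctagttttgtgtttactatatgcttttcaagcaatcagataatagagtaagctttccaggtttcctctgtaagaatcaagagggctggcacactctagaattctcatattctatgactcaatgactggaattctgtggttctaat
Ms4a6c: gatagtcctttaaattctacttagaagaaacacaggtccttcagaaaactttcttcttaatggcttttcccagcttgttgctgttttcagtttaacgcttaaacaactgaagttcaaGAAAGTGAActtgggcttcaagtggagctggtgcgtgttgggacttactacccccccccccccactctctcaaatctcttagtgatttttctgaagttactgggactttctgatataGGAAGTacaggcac
Ms4a6b: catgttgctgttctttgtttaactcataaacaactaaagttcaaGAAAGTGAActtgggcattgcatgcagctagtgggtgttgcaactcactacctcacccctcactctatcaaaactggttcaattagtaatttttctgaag
Ms4a4c: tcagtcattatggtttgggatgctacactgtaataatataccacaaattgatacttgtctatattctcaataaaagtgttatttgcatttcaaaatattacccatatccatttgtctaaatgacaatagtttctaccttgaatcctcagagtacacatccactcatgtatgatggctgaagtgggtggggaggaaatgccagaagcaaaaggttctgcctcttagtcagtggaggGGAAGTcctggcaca
Ms4a4b: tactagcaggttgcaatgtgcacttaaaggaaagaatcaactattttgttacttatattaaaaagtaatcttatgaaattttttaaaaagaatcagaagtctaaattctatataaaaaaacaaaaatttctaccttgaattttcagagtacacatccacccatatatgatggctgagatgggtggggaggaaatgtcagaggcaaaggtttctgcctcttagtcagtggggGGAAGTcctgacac

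The windows were compared over their whole length, with the exon bases that are not printed. The Ms4a6c and Ms4a6b windows were alike over 182 aligned positions, 152 of them identical (83.5%), with a shared run of 48 bases. The Ms4a4c and Ms4a4b windows had 184 identical positions of 251 (73.3%) and a shared run of 20 bases. The other 134 pairs among the 17 windows shared runs of 6 to 12 bases only, and Ms4a7 and Ms4a14 shared a run of 9. The letters GGAAGT occurred in 4 of the 6 member windows (Ms4a7, Ms4a4c, Ms4a6c and Ms4a6b) and in 19.7% of 32851 promoter windows of all genes. In Ms4a6b the 2 GGAAGT matches lie in the exon bases. GAAAGTGAA occurred in the Ms4a6c and Ms4a6b windows, against 0.481% of all windows. Both motifs were searched on both strands and were chosen after the windows had been read, and a match is a description of letters, not a binding site.

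The 12 libraries held 30775 cells after filtering and 987965 to 16514669 UMIs (unique molecular identifiers, counted transcripts) each. Levels are given as CPM, a gene's UMIs scaled to all UMIs of its library. The vector's GFP transcript was at 16.8 to 33.3 CPM in the GFP+ libraries and at 0 to 0.153 CPM in the GFP- libraries, as the sort labels say. At least 3 of 10 microglia markers were found in 61.2% to 78.5% of GFP+ cells and in 94.9% to 97.8% of GFP- cells. The naive microglia library was shallow, with a median of 425 UMIs per cell, and 95.5% of cells in the library labelled neurons had at least 3 oligodendrocyte markers, so it is called the naive neuron sort here. Any 2 libraries shared at most 8 barcodes.

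The first question was how the GFP+ cells and the GFP- cells of the same brains differed in the Ms4a genes. All 7 members that could be tested were higher in GFP+ cells, led by Ms4a14, Ms4a4c and Ms4a7. Ms4a1, the B cell gene, was at 1.01 CPM or less in every brain library, below the filter on low counts. With 7 of 7 tested members called higher, the background was 16.6% of 11756 genes called higher and 32.5% called in either direction.

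Ms4a7, a macrophage gene, was at 915 and 735 CPM in the i.v. GFP+ libraries (female, then male) and at 668 and 903 CPM in the i.c.v. GFP+ libraries. In the GFP- libraries it was at 122 and 195 CPM after i.v. and at 376 and 292 CPM after i.c.v. dosing. No GFP- library reached the lowest GFP+ library, and within a mouse the GFP+ level was 1.78 to 7.53 times the GFP- level. The mean was 805 ± 123 CPM in GFP+ and 246 ± 111 CPM in GFP- cells (SD, n = 4), a log2 fold change of 1.97 (SE 0.34, adjusted p = 0.00392, edgeR quasi-likelihood test).

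Ms4a14, its neighbour on the chromosome, was at 36.5 and 43.2 CPM in the i.v. GFP+ libraries and at 40.7 and 49.4 CPM in the i.c.v. GFP+ libraries. The GFP- libraries had 4.22 and 9.96 CPM after i.v. and 18.8 and 13.5 CPM after i.c.v. dosing. The 2 sorts did not overlap, and the order of the 4 GFP- libraries was the same as for Ms4a7, lowest in the i.v. female and highest in the i.c.v. female. The log2 fold change was 2.10 (SE 0.35, adjusted p = 0.00342, edgeR).

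The Ms4a6 genes encode closely related proteins of myeloid cells, and they differed by smaller amounts. Ms4a6c was at 591 and 434 CPM in i.v. GFP+ and 392 and 416 CPM in i.c.v. GFP+, against 157 and 122 CPM in i.v. GFP- and 270 and 174 CPM in i.c.v. GFP- libraries. Ms4a6b was at 333 and 258 CPM in i.v. GFP+ and 381 and 309 CPM in i.c.v. GFP+, against 142, 158, 241 and 167 CPM in the GFP- libraries in the same order. Both genes were higher in all 4 GFP+ libraries than in any GFP- library, with log2 fold changes of 1.61 (SE 0.28, adjusted p = 0.00392) for Ms4a6c and 1.12 (SE 0.20, adjusted p = 0.00434, edgeR) for Ms4a6b. Ms4a6d had the smallest difference of the tested members, from 146 to 191 CPM in GFP+ and from 113 to 141 CPM in GFP- libraries, a log2 fold change of 0.68 (SE 0.14, adjusted p = 0.00861, edgeR). The Ms4a6d call was lost when the fit held only the 2 mice dosed i.c.v. (0.42, adjusted p = 0.129) or 500 UMIs per cell (0.43, adjusted p = 0.168, edgeR).

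Ms4a4a, a macrophage gene whose human counterpart is linked with soluble TREM2, was low throughout, at 7.50 to 11.5 CPM in GFP+ and 2.41 to 6.66 CPM in GFP- libraries. The sorts did not overlap and the log2 fold change was 1.42 (SE 0.31, adjusted p = 0.0095, edgeR). Ms4a4c, a gene of monocytes and other blood leukocytes, was split by route within the GFP+ sort, at 104 and 83.2 CPM after i.v. and at 27.2 and 36.6 CPM after i.c.v. dosing. In the GFP- libraries it was at 18.1 and 12.4 CPM after i.v. and at 25.4 and 19.2 CPM after i.c.v. dosing. Its log2 fold change between the sorts was 2.04 (SE 0.46, adjusted p = 0.0108, edgeR), and the call was lost when only the 2 mice dosed i.c.v. were fitted (0.69, adjusted p = 0.11).

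For 7 of the 8 members the GFP+ libraries all lay above the GFP- libraries in CPM, where 6.29% of 11756 genes had this order and 32.6% the opposite one. The median log2 fold change of the 7 tested members was 1.61, against 0.01 over all tested genes. With library totals alone, without TMM (the default edgeR scaling), the median of all genes moved to -0.27, so that 770 genes were called higher and 3803 lower, against 1951 and 1869. The members moved by a like amount, and all 7 were still called higher on that scale, at 1.71 for Ms4a7 and 0.39 (adjusted p = 0.0297, edgeR) for Ms4a6d. Markers of other cells moved with the sort. Of the 10 microglia markers 6 were called lower and none higher in GFP+ cells, with summed levels of 5637 to 10730 CPM against 11673 to 16850 CPM. Of the 8 markers of macrophages at the brain's borders, Mrc1 and Pf4 were called higher and Cd163 lower, with summed levels of 1305 to 1789 CPM against 777 to 1239 CPM. In these sums, fewer cells with a transcript and less transcript per cell cannot be told apart.

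**Figure D1:**
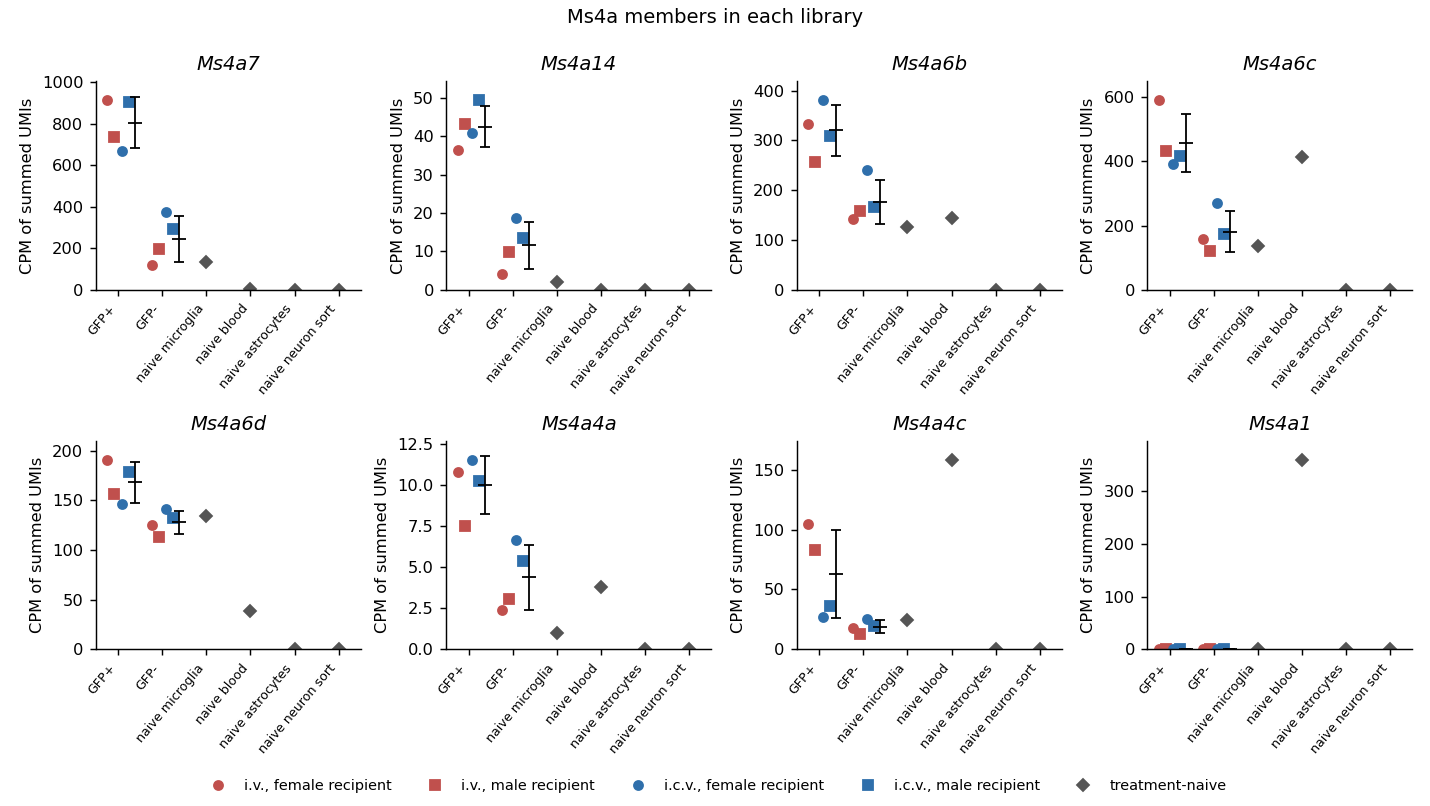
Level of each Ms4a member (CPM of summed UMIs, linear axes that start at 0) in each of 12 libraries, by sort. Circles are female and squares male recipients, red i.v. and blue i.c.v., diamonds the treatment-naive libraries, and black bars mean ± SD of the 4 libraries of a sort. All GFP+ points lie above all GFP- points except for Ms4a1, which is seen in naive blood, and Ms4a4c is split by route within GFP+.

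Of the other 11 Ms4a genes, 6 had no UMI in any of the 12 libraries. Ms4a4b, a lymphocyte gene that interacts with the costimulatory receptor GITR, was the only one of the 11 that passed the filter in the sort comparison, at 1.92 to 7.63 CPM in GFP+ and 0.766 to 2.22 CPM in GFP- libraries. Its sorts overlapped, with a log2 fold change of 1.72 (SE 0.55, adjusted p = 0.0399, edgeR), and with the mouse as a block the adjusted p was 0.123. Of the 12 genes listed for their links with Ms4a proteins, 11 were tested, 5 were called higher and none lower in GFP+ cells. Over all 11756 genes 16.6% were called higher and 15.9% lower. The 2 with the largest differences, Tmem176a (1.53, SE 0.22, adjusted p = 0.00178) and Tmem176b (1.45, SE 0.19, adjusted p = 0.00112, edgeR), encode tetraspan proteins related to the Ms4a family. Fcer1g, the common gamma chain of Fc receptors, Tyrobp, the adaptor of TREM2, and Fcgr2b, an inhibitory Fc receptor, had smaller differences of 0.58, 0.54 and 0.45. Trem2 itself was at 0.13 (SE 0.13, adjusted p = 0.465) and Adam10, a protease that sheds TREM2, at -0.31 (SE 0.11, adjusted p = 0.0529, edgeR). In CPM the GFP+ mean of Trem2 was 0.901 times the GFP- mean, so its direction depended on the scaling. The GFP+ mean of Adam10 was 0.665 times the GFP- mean, with no overlap of the sorts.

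The treatment-naive libraries, with 1 library each and so no test, gave the levels in untreated tissue. Ms4a7 was at 135 CPM in naive microglia (exact 95% Poisson interval 113 to 160, counting error only) and at 4.18 CPM (2.09 to 7.48) in naive blood. Ms4a14 had 2 UMIs in naive microglia, 2.02 CPM (0.245 to 7.31), and 0 in blood, which allows up to 1.14 CPM. Ms4a7 was thus lower in blood than in any microglia or GFP-sorted library, and Ms4a14 was not distinguishable between blood and naive microglia at this depth. Ms4a6c and Ms4a4c had another pattern, at 415 and 159 CPM in blood against 138 and 24.3 CPM in naive microglia. Ms4a6b was near equal in the 2, at 144 CPM in blood and 127 CPM in naive microglia, with overlapping intervals. Ms4a6d was at 38.8 CPM in blood and at 135 CPM in naive microglia, the latter within the range of the GFP- libraries.

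Ms4a1 was at 359 CPM in naive blood (337 to 383). In that library 113 cells had at least 3 B cell markers, and in them Ms4a1 was at 1031 CPM, against 4.65 CPM in the other blood cells. Ms4a8a, Ms4a4b and Ms4a2 among the other genes were also highest in blood, at 85.5, 55.1 and 3.04 CPM. The naive astrocyte library had no UMI of any member, which allows up to 0.624 CPM, and the naive neuron sort had at most 1 UMI of a member. Ranked by level, Ms4a7 ran from the GFP+ libraries (668 to 915 CPM) through i.c.v. GFP- (292 and 376 CPM) to i.v. GFP- (122 and 195 CPM) and naive microglia (135 CPM), the last 2 overlapping, and then to blood.

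Counted per cell at an equal depth of 500 UMIs, Ms4a7 had a UMI in 34.2% and 28.2% of i.v. GFP+ cells and in 22.4% and 30.3% of i.c.v. GFP+ cells. The shares were 2.88% and 4.92% in i.v. GFP- cells and 12.6% and 7.90% in i.c.v. GFP- cells. All 1146 naive astrocytes and 334 blood cells of that depth were without an Ms4a7 UMI, which allows shares of up to 0.262% and 0.898%, but these libraries held almost no Ms4a7, so they give no level of free Ms4a7 transcript for the GFP- libraries, where its part in the shares was not tested. Before UMIs were drawn the median depth was 1058 to 3499 UMIs in GFP+ libraries, 842 to 1034 in GFP- libraries, 3395 in astrocytes and 6875 in blood. At 1000 UMIs per cell the Ms4a7 shares were 42.3% to 52.6% in GFP+ and 5.03% to 21.5% in GFP- libraries.

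Members were then counted per cell. The cells that reached 1000 UMIs were 52.4% to 76.6% of GFP+, 39.7% to 52.8% of GFP- and 11.9% of naive microglia. At 1000 UMIs per cell, at least 1 of the 8 members was found in 80.4% and 72.2% of i.v. GFP+ cells and in 69.1% and 74.3% of i.c.v. GFP+ cells. The corresponding shares were 24.6% and 26.1% in i.v. GFP-, 46.0% and 34.9% in i.c.v. GFP- and 25.0% in naive microglia. At 500 UMIs the share was 42.8% to 59.7% in GFP+ and 14.1% to 31.1% in GFP- libraries. At 1000 UMIs, at least 2 members were found in 33.5% to 48.3% of GFP+ cells and in 5.88% to 15.2% of GFP- cells. In naive blood the share with at least 1 member was 55.3%, with Ms4a6c, Ms4a1, Ms4a6b and Ms4a4c as the members most often seen.

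**Figure D2:**
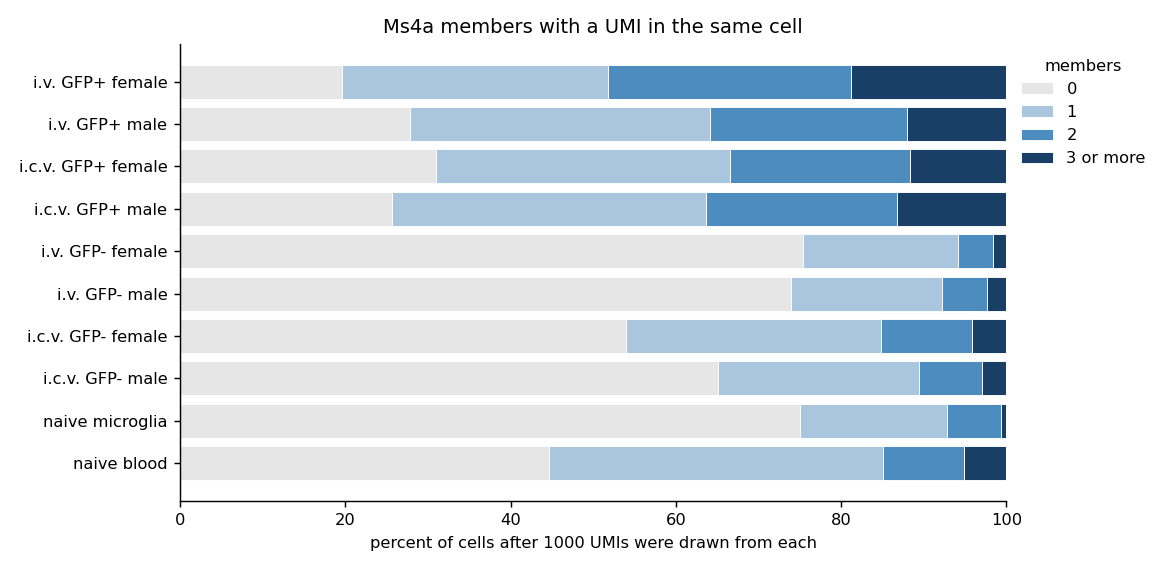
Share of cells (percent, after 1000 UMIs were drawn from each cell) with 0, 1, 2 or 3 and more of the 8 Ms4a members, in the 8 libraries of treated mice and the naive microglia and blood libraries. Cells without any member make up 19.6% to 30.9% of the GFP+ libraries and 54.0% to 75.4% of the GFP- libraries.

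Within the GFP+ sort, for some pairs and not for others, a larger share of cells with 1 member than of cells without it held the second. Cells with an Ms4a7 UMI had Ms4a14 in 7.20% to 9.55% of cases and cells without it in 2.14% to 3.87%, a ratio of 1.89 to 3.69 that was above 1 in 4 of 4 libraries. The median ratio of the 4 libraries was 2.57, with 46 to 97 cells that held both. Ms4a6b, Ms4a6c and Ms4a6d were also found together, Ms4a6c in 31.7% to 49.7% of cells with Ms4a6b and in 23.3% to 37.6% of cells without. Ms4a7 with Ms4a6c had ratios of 1.09 to 1.62, and Ms4a14 with Ms4a6c or with Ms4a6d had ratios on both sides of 1 (0.879 to 1.07 and 0.559 to 1.05). In 4 of 4 libraries a larger share of cells with Ms4a6c than of cells without it held Ms4a4c (ratios of 1.21 to 1.99). With Ms4a7 the ratio of Ms4a4c was above 1 in 2 of 4 libraries only (0.754 to 1.73). All cells here held 1000 UMIs, but cells of 1 library are not replicates, so these shares have no test. Only pairs of members are given, without other gene pairs of like detection. A ratio above 1 is therefore not shown to be particular to Ms4a genes.

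In the GFP- libraries pairs with Ms4a7 were also found together, at base shares lower than in GFP+ cells. Ms4a6c was found in 25.7% to 40.9% of GFP- cells with an Ms4a7 UMI and in 5.07% to 12.2% of those without, a ratio of 2.15 to 8.05. Ms4a6b with Ms4a7 had a ratio of 1.72 to 4.11, against 1.17 to 1.42 in GFP+ libraries. Ms4a6c with Ms4a6b had a ratio of 2.03 to 3.70 and Ms4a4c with Ms4a6c of 3.098 to 8.88, whereas Ms4a14 with Ms4a6c or Ms4a6d ran from 0 upwards in few cells. Ms4a14 was found in 2.82% to 9.26% of GFP- cells with Ms4a7 and in 0.224% to 1.30% of those without, with 2 to 24 cells that held both. Ratios are bounded by the base share, which differs between the sorts, so they were not compared by a test.

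Cells of both sorts were then split by 8 markers of macrophages at the borders of the central nervous system (CNS-associated macrophages, CAM: Mrc1, Pf4, Cd163, Lyve1, F13a1, Cbr2, Stab1 and Folr2), a list that holds no Ms4a gene. Of these markers Mrc1 and Pf4 were called higher and Cd163 lower in GFP+ cells, as given above, so the split is not independent of the sort. Cells with at least 3 of the 8 made up 22.3% to 29.99% of GFP+ cells and 3.25% to 9.25% of GFP- cells. Among the GFP- libraries the share was lower after i.v. (3.25% and 3.80%) than after i.c.v. dosing (9.25% and 6.09%). These cells were deeper than the rest, with medians of 6258 to 7973 UMIs against 879 to 1894 in GFP+ libraries and of 3836 to 5165 UMIs against 825 to 1019 in GFP- libraries.

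In CAM-marker cells Ms4a7 was at 1188, 1030, 830 and 1010 CPM in the GFP+ libraries (i.v. female, i.v. male, i.c.v. female, i.c.v. male) and at 907, 1011, 769 and 1006 CPM in the GFP- libraries. In all other cells it was at 722, 516, 502 and 790 CPM in GFP+ and at 47.1, 73.5, 230 and 145 CPM in GFP- libraries. The 2 sorts thus overlapped in marker cells and were apart in the other cells, where Ms4a7 was 1.28 to 2.00 times lower than in marker cells in GFP+ and 3.35 to 19.2 times lower in GFP- libraries. In naive microglia Ms4a7 was at 816 CPM in the 17 CAM-marker cells and at 64.7 CPM in the others. The same held when the markers were counted at 1000 UMIs per cell.

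Ms4a14 was at 28.7 to 40.1 CPM in CAM-marker cells of the GFP- libraries and at 1.76 to 15.1 CPM in the other GFP- cells. In the GFP+ libraries it was at 35.5 to 48.4 CPM in marker cells and at 37.2 to 57.3 CPM in the others, higher in marker cells in 2 of 4 libraries. Ms4a4c also went both ways within GFP+, lower in marker cells of the i.v. libraries (63.2 against 133 CPM and 60.1 against 100.4 CPM) and higher in those of the i.c.v. libraries (31.9 against 22.4 CPM and 39.7 against 33.3 CPM). Ms4a7, Ms4a6b, Ms4a6c, Ms4a6d and Ms4a4a were higher in marker cells in 4 of 4 GFP+ and 4 of 4 GFP- libraries. Ms4a6c was at 439 to 725 CPM in GFP- marker cells and at 66.9 to 181 CPM in the others. Of all Ms4a7 UMIs, 53.7% to 62.8% of those in GFP+ libraries and 55.4% to 67.3% of those in GFP- libraries lay in CAM-marker cells. Marker cells were deeper than the others, so these shares do not show how far Ms4a7 was raised in them, as the CPM values do.

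The sort comparison was repeated on the 2 sets of cells. With CAM-marker cells left out, all 7 tested members were still called higher in GFP+ cells, at 2.62 for Ms4a7 (adjusted p = 0.00751) and 2.72 for Ms4a14 (adjusted p = 0.00609, edgeR). With only CAM-marker cells, a choice made after the data were seen, no member was called, with log2 fold changes of 0.16 for Ms4a7 (adjusted p = 0.847), 0.33 for Ms4a14 and 0.04 for Ms4a6c (edgeR). In that comparison 23 of 9866 genes were called and 722 had an unadjusted p under 0.05, and the GFP- libraries held 87 to 403 such cells. Some of the markers that chose the cells themselves differ between the sorts. The lack of a call therefore cannot be told apart from the choice of cells.

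**Figure D3:**
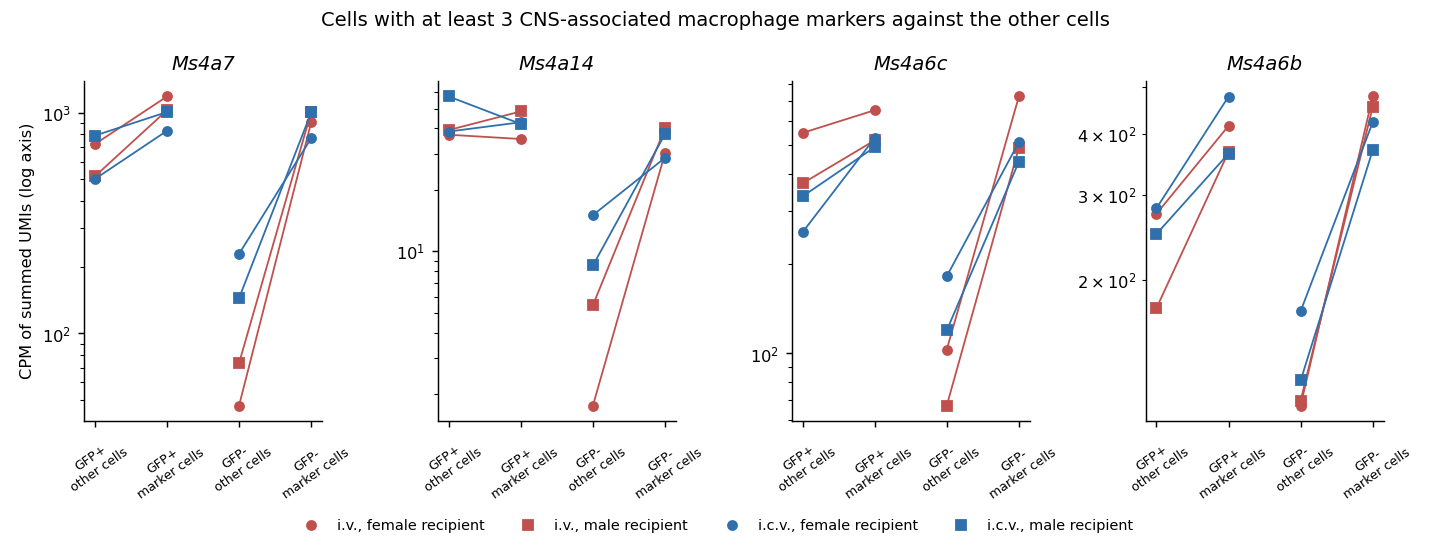
Levels of 4 Ms4a members (CPM of summed UMIs, log axes with a separate range for each gene) in cells with at least 3 CAM markers and in all other cells of each library, joined by a line for each library. Circles are female and squares male recipients, red i.v. and blue i.c.v. In GFP- libraries each line rises steeply to the marker cells, whose values overlap those of GFP+ marker cells, and for Ms4a14 the GFP+ lines run both ways.

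In female recipients of male donor cells, Y-linked transcripts mark donor cells. The mark is often missed, since a Y-linked UMI was found in only 50.5% (i.v. female) and 49.4% (i.c.v. female) of GFP+ cells, and 17.7% and 25.3% at 1000 UMIs, so cells without one can be donor cells. In the GFP- libraries of the female mice, 44 of 2675 cells (i.v.) and 58 of 4355 cells (i.c.v.) had a UMI of Ddx3y, Eif2s3y, Kdm5d or Uty. Ms4a7 was found in 34.1% (exact 95% interval 20.5 to 49.9) and 53.4% (39.9 to 66.7) of these cells, and in 5.21% and 22.6% of the cells without a Y-linked UMI. The median depth of the 2 kinds of cell was 4110 and 1031 UMIs in the i.v. library and 1060 and 918 UMIs in the i.c.v. library, so depth moved with the i.v. difference. At 1000 UMIs, Ms4a7 was found in 2 of 11 cells with a Y-linked UMI (18.2%, 2.28 to 51.8) against 4.92% of the others in the i.v. library. It was found in 11 of 19 such cells (57.9%, 33.5 to 79.7) against 21.1% in the i.c.v. library.

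Most Ms4a7-positive GFP- cells of the females nevertheless carried Xist, the transcript of the inactive X chromosome of female cells. Xist was found in 72.4% (64.5 to 79.3) of 152 such cells after i.v. and in 72.0% (69.1 to 74.7) of 1003 such cells after i.c.v. dosing, against 1.32% and 1.09% of Ms4a7-positive GFP+ cells. Y-linked UMIs were found in 9.87% and 3.09% of the Ms4a7-positive GFP- cells and in 1.15% and 0.805% of the Ms4a7-negative ones. Before UMIs were drawn, Xist was found in 88.5% (i.v.) and 63.9% (i.c.v.) of the Ms4a7-negative GFP- cells. That is above the Ms4a7-positive share after i.v. and below it after i.c.v. dosing. With 1000 UMIs drawn, the Xist shares were 60.6% (48.3 to 72.0) and 69.9% (65.3 to 74.3) of Ms4a7-positive GFP- cells against 83.0% and 83.5% of Ms4a7-negative ones. In the GFP- sort of the females, most cells with Ms4a7 thus also held a female transcript. The sex of the donors of the later bone marrow dose is not stated, so such cells cannot be assigned to the recipient by Xist alone.

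The second question was how the Ms4a genes of the GFP+ sort differed between the routes of dosing. In its biodistribution study the paper reports donor-derived blood cells after i.v. but not after i.c.v. dosing alone. Which cells carry GFP can thus also differ by route, and a change within engrafted cells cannot be told apart from this. Between i.v. and i.c.v. GFP+ libraries, Ms4a4c was called, 2.94 times higher in mean CPM after i.v. dosing, and the other 6 tested members were not. Ms4a4c had a log2 fold change of 1.66 (SE 0.25, adjusted p = 0.0108, edgeR), with 1 of 7 members called higher against a background of 2.56% of 12540 genes called higher and 2.78% called in all. Both i.v. libraries were above both i.c.v. libraries for 2 of 8 members, Ms4a4c and Ms4a6c, an order that 16.4% of genes had. Ms4a6c was at 0.45 (SE 0.25, adjusted p = 0.424) and Ms4a7 at 0.17 (SE 0.26, adjusted p = 0.793, edgeR), neither past the threshold with 2 mice a route. Without TMM the median of all genes moved by -0.11 in this comparison, and Ms4a4c was still called.

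Ms4a4b, next to Ms4a4c, had the same direction, at 7.63 and 5.57 CPM after i.v. and 1.92 and 2.02 CPM after i.c.v. dosing (log2 fold change 1.85, SE 0.33, adjusted p = 0.025, edgeR). Of the last 500 bases of the Ms4a4c transcript, 11.8% of 50-base stretches also occur in Ms4a4b transcripts, and 13.7% of those of Ms4a6c occur in other genes, Ms4a6b among them. How reads from such stretches were counted was not examined. The last 500 bases of the other 6 members' transcripts held no shared stretch, and the rest of the transcripts was not searched in this way. Of the 12 linked genes, 2 were called higher after i.v. dosing. They were Fcgr4, an activating Fc receptor (1.81, SE 0.21, adjusted p = 0.00584, edgeR), and Tnfrsf18, which encodes GITR and had no UMI in either i.c.v. GFP+ library against 4.90 and 5.57 CPM in the i.v. libraries.

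The summed level of the 4 MHC class II genes (H2-Aa, H2-Ab1, H2-Eb1 and Cd74) was 26632 and 27849 CPM in i.v. GFP+ and 778 and 3266 CPM in i.c.v. GFP+ libraries, and all 4 genes were called higher. Cells with at least 3 of them made up 36.7% and 37.3% of i.v. GFP+ cells and 3.01% and 11% of i.c.v. GFP+ cells. Of the 8 monocyte markers, 7 were tested and 5 were called higher after i.v. dosing, with summed levels of 298 and 202 CPM against 1.92 and 3.03 CPM. Of the 7 dendritic markers, 6 were tested and 2 were called higher, with summed levels of 206 and 378 CPM against 9.96 and 41.1 CPM. Of the 8 neutrophil markers, all tested, 5 were called higher, with summed levels of 1513 and 2843 CPM against 112 and 120 CPM. In the GFP- libraries the neutrophil sums were 517 and 343 CPM after i.v. and 4973 and 937 CPM after i.c.v. dosing. The monocyte sums there were 42.4 and 21.8 CPM against 182 and 46.7 CPM, and the dendritic sums overlapped between the routes. Of the 5 patrolling monocyte markers 3 were called higher, although their summed levels overlapped (193 and 372 CPM against 358 and 359 CPM).

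Ms4a4c was higher in MHC class II, monocyte-marker and dendritic-marker cells, and it had 0 and 1 UMI in the 14 and 25 cells with at least 3 neutrophil markers of the i.v. GFP+ libraries. In MHC class II cells of the i.v. GFP+ libraries it was at 142 and 105 CPM and in the other cells at 57.6 and 50.7 CPM. Of its UMIs there, 75.6% and 75.5% lay in MHC class II cells. These shares depend also on the share of all UMIs in such cells, so they cannot be set against the shares of cells. In the i.c.v. GFP+ libraries Ms4a4c was at 38.6 and 40.7 CPM inside and at 26.4 and 35.5 CPM outside. In cells with at least 3 monocyte markers, 38 and 16 in the i.v. GFP+ libraries and none in the i.c.v. ones, Ms4a4c was at 674 and 373 CPM. In the 34 and 39 cells with at least 3 dendritic markers it was at 288 and 182 CPM. The monocyte-marker cells of naive blood (120 cells) had Ms4a4c at 272 CPM and Ms4a6c at 677 CPM, and Ms4a7 at 7.10 CPM only.

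Ms4a7 was lower in these cells of the i.v. libraries. In the i.v. GFP+ libraries it was at 107 and 103 CPM in monocyte-marker cells and at 39.3 and 28.4 CPM in dendritic-marker cells, while Ms4a6c was at 1227 and 598 CPM in the former. Ms4a7 was at 754 and 572 CPM in MHC class II cells and at 1117 and 978 CPM in the others of the i.v. GFP+ libraries. The i.c.v. GFP+ libraries did not share this order, with 849 and 889 CPM in MHC class II cells against 656 and 907 CPM in the others. With MHC class II cells left out, a choice made after the data were seen, Ms4a4c was at 0.76 (adjusted p = 0.735, edgeR) and was no longer called. It was still called without the cells of other marker lists (1.38, adjusted p = 0.0491), and it was lost without the i.c.v. GFP+ female library (1.43, adjusted p = 0.11) and at 500 UMIs per cell (1.51, adjusted p = 0.0911, edgeR).

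**Figure D4:**
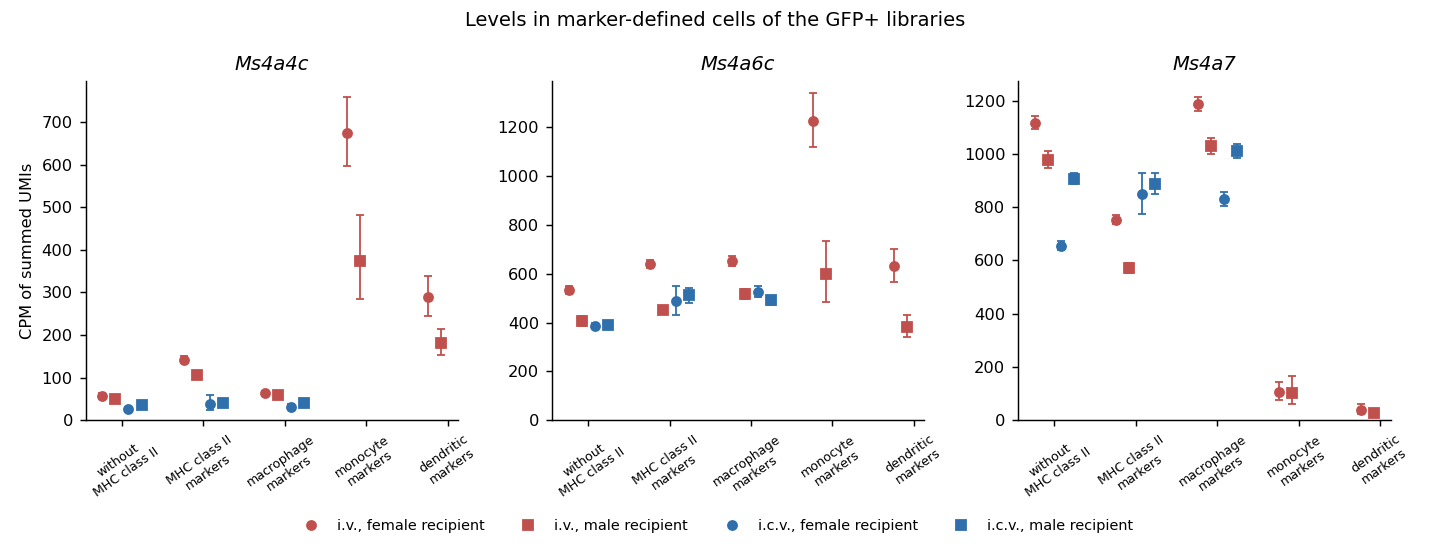
Levels of Ms4a4c, Ms4a6c and Ms4a7 (CPM of summed UMIs with exact 95% Poisson intervals, linear axes that start at 0) in cells of the GFP+ libraries defined by at least 3 markers of a list, and in cells without MHC class II markers. Circles are female and squares male recipients, red i.v. and blue i.c.v., and no i.c.v. GFP+ cell had 3 monocyte or dendritic markers. Ms4a4c is highest and Ms4a7 lowest in monocyte- and dendritic-marker cells.

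In the GFP- sort, the members differed by route in the other direction. All 7 tested members were lower after i.v. dosing, with log2 fold changes of -0.31 to -1.26, but none was called, as 0% of 12540 genes were called (edgeR, 1063 genes at an unadjusted p under 0.05). Ms4a7 was at -1.19 (SE 0.27, unadjusted p = 0.0019, adjusted p = 0.389, edgeR), Ms4a14 at -1.26 (SE 0.34) and Ms4a4a at -1.24 (SE 0.30). Both i.v. libraries were below both i.c.v. libraries for these 7 members, an order that 13.1% of genes had. By DESeq2, which called 67 genes, Ms4a7 had an adjusted p of 0.000718 and Ms4a14 of 0.0495. CAM-marker cells, which hold much of the Ms4a7, moved with this difference as given above, and with them left out Ms4a7 was at -1.73 (adjusted p = 0.452, edgeR).

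The GFP difference depended on the route for 1 of the 7 tested members, Ms4a4c, where 1.91% of 12540 genes were called and 1.8% were called higher. Its GFP difference was 2.33 log2 units larger after i.v. than after i.c.v. dosing (SE 0.36, adjusted p = 0.0222, edgeR). The call was lost without the i.c.v. GFP- female (adjusted p = 0.107), the i.c.v. GFP+ female (0.0844) or the i.v. GFP- male library (0.101), at 500 UMIs per cell (0.111), and without the cells of other marker lists (0.073) or MHC class II cells (0.168). For Ms4a7 the same term was 1.37 (SE 0.38, adjusted p = 0.108) and for Ms4a6c 1.24 (SE 0.36, adjusted p = 0.122, edgeR). Both terms passed the threshold by DESeq2 (0.00387 and 0.00849), with no filter on low counts (0.0164 and 0.0243) and without CAM-marker cells (0.0489 and 0.0471). With the mouse as a block, Ms4a6c had an adjusted p of 0.0465 and 678 genes were called in place of 240. The term was positive for all 7 tested members, in comparisons that share their libraries.

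**Figure D5:**
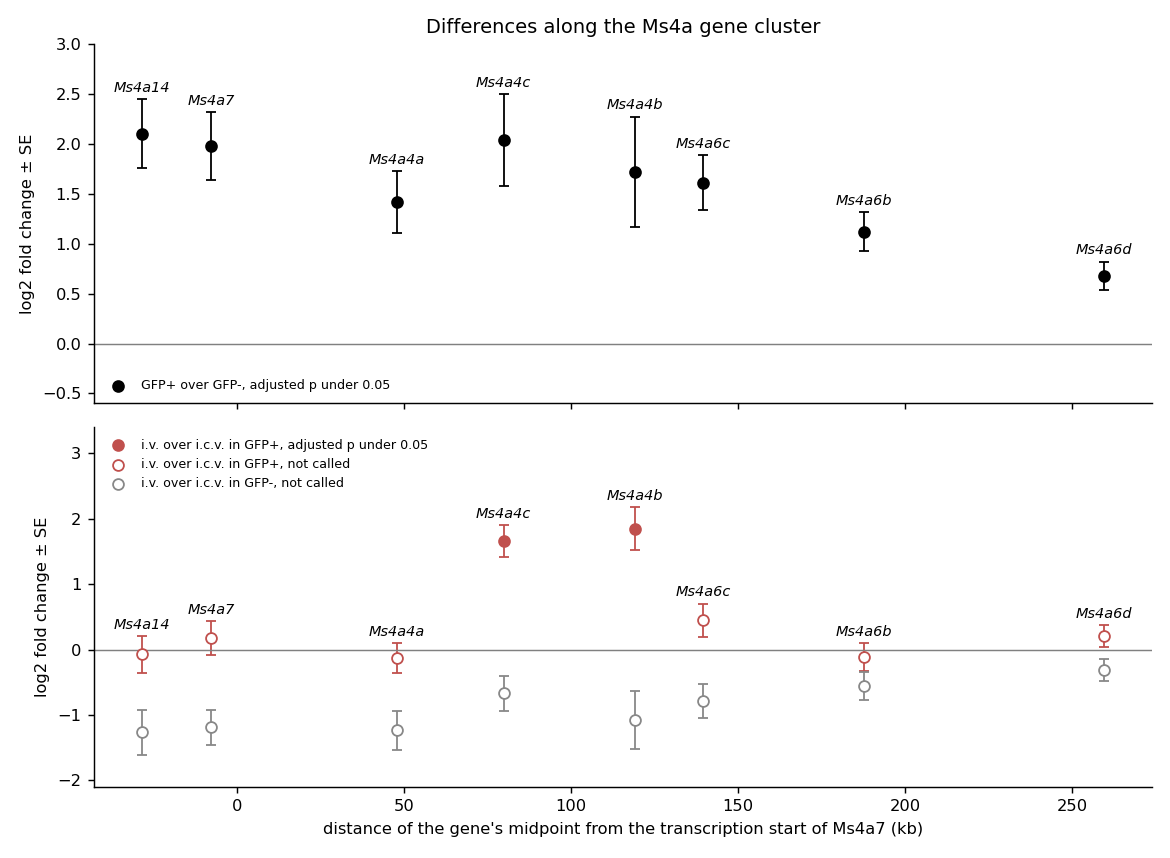
log2 fold changes with standard errors from edgeR for the 7 tested members and Ms4a4b, at the distance of each gene's midpoint from the transcription start of Ms4a7 (kb). The upper panel gives GFP+ over GFP- and the lower panel i.v. over i.c.v. within GFP+ (red) and within GFP- (grey), with filled points where the adjusted p was under 0.05. Ms4a14 and Ms4a7 had similar values between the sorts, where Ms4a4c was also close, and between routes in GFP-, where Ms4a4a was also close. Between routes in GFP+ their values were small and of opposite sign. Ms4a6d had the smallest sort difference, and Ms4a4c and Ms4a4b are the filled points of the lower panel.

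Genes with the pattern most like each member were found by Pearson's r of log2(CPM + 1) over the 12 libraries, among 9668 genes that reached 20 CPM in at least 1 library. For Ms4a7 these were Tmem221 (r = 0.986), Galnt3 (0.984) and Bst2 (0.982), and for Ms4a14 Paox (0.986), Apoc4 (0.965) and Tmem221 (0.961). Ms4a6c was most like Igsf6 (0.995), Cybb (0.994) and Ccr1 (0.993), myeloid genes that blood also expressed. Ms4a6b was most like Ly9, Cxcl2 and Slamf9, Ms4a6d most like 5430427O19Rik, Rgs1 and Cd300c2, and Ms4a4c most like Klra2, Il2rg and Cd69. Ms4a1 was most like Ly6d (0.998), Cd79a and Cd2, genes of B cells and lymphocytes, and Ms4a4a did not reach 20 CPM. The points include naive libraries far from the others, and over the 8 libraries of treated mice other genes led, with Spats2l (0.996) for Ms4a7 and H2-DMa (0.993), an MHC class II chaperone gene, for Ms4a4c.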

How the data were processed

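Single cells were captured with a 3′ Chromium kit. The raw UMI counts were made by the authors with Cell Ranger (3.1.0 in the matrix headers) against mm10 and deposited as 1 matrix per library. Barcodes below 200 genes or above 10% mitochondrial UMIs were left out, and doublets were not removed. Counts were summed per library and given as CPM. The GFP+ and GFP- libraries, 4 each, were compared with edgeR 4.0.16 (quasi-likelihood test, TMM, filterByExpr, Benjamini-Hochberg over all tested genes, two-sided, called at an adjusted p under 0.05). Routes and their dependence on the sort were contrasts in a model of 4 groups of 2 libraries. The libraries of a route are separate mice. Both sorts of a mouse share the animal, so the mouse was fitted as a block as an alternative. Deviations from the mean of each sort, which keep route differences, correlated at 0.20, -0.28, -0.33 and 0.01 between the 2 sorts of each mouse. Between the sorts of different mice they correlated at -0.49 to 0.44. Others were DESeq2 1.42.0, other filters and scalings, cell subsets and each library left out.

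Cells were assigned to marker classes by at least 3 markers, and shares used 500 or 1000 UMIs drawn per cell. Intervals are exact 95% intervals and cover counting error only, and a count of 0 allows up to 3 counts. Named genes were the 8 members, the called genes among other Ms4a and linked genes, and the 3 genes with the highest r for each member that reached 20 CPM. The members and lists were chosen with earlier results of these data known. Tested on simulated counts, the fits recovered 98.5% (sort), 90.5% (route in GFP+), 87% (route in GFP-) and 59.5% (dependence on route) of 200 changed genes. These genes were changed by 2 log2 units, among 11659, 12238, 12210 and 12240 genes in that order. False calls were 3.90%, 5.24%, 3.87% and 7.03% of all calls. Every gene had the same dispersion of 0.05 and libraries were drawn independently, which real libraries need not follow. Promoter windows came from RefSeq (GRCm38.p6) and gene positions from GENCODE vM21.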

Additional observations from a re-analysis of the deposited data

Results flagged for a closer look

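In 2 Ms4a genes the GFP difference was not the same after the 2 routes by a test of the interaction itself. For Ms4a4c the log2 fold change of GFP+ over GFP- was 2.33 larger after i.v. than after i.c.v. dosing (adjusted p = 0.0222, edgeR), and the adjusted p ran from 9.24e-07 to 0.168 over 20 alternatives, of which 14 passed the threshold. For its neighbour Ms4a4b it was 2.93 larger (adjusted p = 0.0391, edgeR), on 5 to 126 UMIs per library, and without TMM the adjusted p was 0.0516. The 4 MHC class II genes and 6 of 7 tested monocyte markers had the same interaction, and the Ms4a4c call was lost without MHC class II cells (adjusted p = 0.168) and without the cells of other marker lists, monocytes among them (0.073). An outlier rule compared the gap between the outermost library and the next with the range of the 4 values. It flagged no library in any of 30 sets of 4 values examined. With 4 values it finds only extreme gaps, and Ms4a6c in GFP+ was not flagged at 591 CPM in the i.v. female against 392 to 434 CPM in the other 3.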

How the results depend on the processing

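Of 3820 genes called between the sorts, the alternatives gave 2203 without CAM-marker cells, 1278 at 500 UMIs per cell, 1031 with only the 2 mice dosed i.c.v. and 23 in only CAM-marker cells. Leaving out 1 library gave 2177 (without the i.v. GFP- male) to 3791. Route calls in GFP+ cells (348) became 679 with no filter on low counts, 163 without cells of other marker lists, 1154 without CAM-marker cells, 74 at 500 UMIs and 36 without MHC class II cells, and 42 (without the i.c.v. GFP+ female) to 293 with 1 library left out. Route calls in GFP- cells (0) became 67 by DESeq2, 83 with no filter, 3 at 500 UMIs and 4 with that sort alone, and 0 to 23 (without the i.c.v. GFP- male) with 1 library left out. Genes whose GFP difference depended on route (240) became 142 with a stricter filter, 568 by DESeq2, 698 with no filter, 58 without cells of other lists, 736 without CAM-marker cells, 64 at 500 UMIs, 412 with recipient sex as a covariate, 678 with the mouse as a replicate block, 60 without MHC class II cells, and 41 (without the i.v. GFP- male) to 239 with 1 library left out. Apart from Ms4a4b between the sorts and Ms4a6c in the dependence on route, the block changed no call of a tested member. Between the sorts, 4 genes reversed in only CAM-marker cells, Ms4a4a (-0.16), Ms4a4b (-0.61), Ms4a6b (-0.066) and Ms4a6d (-0.17). Small route differences in GFP+ cells reversed for Ms4a14 without cells of other lists (0.042), at 500 UMIs (0.22) and without MHC class II cells (0.33), for Ms4a4a in the last 2 of these (0.26 and 0.25), and for Ms4a6b without CAM-marker cells (0.0017) and at 500 UMIs (0.15). With 1 library left out they ran from -0.24 to 0.11 for Ms4a14, -0.058 to 0.45 for Ms4a7, -0.42 to 0.087 for Ms4a4a and -0.30 to 0.055 for Ms4a6b. The ratio of Ms4a14 shares with and without Ms4a7 was 2.68 ± 0.76 (SD, n = 4) with 1000 UMIs drawn and 4.50 without drawing. Ms4a7 in naive microglia was 98.5 CPM over all barcodes and 208 CPM under a strict filter, against 135. The highest r with Ms4a7 was 0.996 (Spats2l) over 8 libraries. The causes of these changes were not tested. Depth limits Ms4a1, Ms4a4a and Ms4a4b, at 11.5 CPM or less in the libraries of treated mice.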

Other observations

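In cells with at least 3 MHC class II genes, Ms4a6c was at 638 and 452 CPM in the i.v. GFP+ libraries and at 489 and 511 CPM in the i.c.v. GFP+ libraries. Patrolling monocytes, a blood subset that stays along vessel walls, were scored with 5 markers in naive blood. The 75 cells with at least 3 of them had Ms4a6c at 653 CPM and Ms4a4c at 89.2 CPM, against 364 and 173 CPM in the other blood cells. Ms4a6c and Ms4a4c thus differed in opposite directions between these cells and the rest of 1 library, with no replicate. The library was mixed, with at least 3 B cell markers in 33.1% of its cells. Its monocyte-marker cells, given above, had a similar Ms4a6c level and a higher Ms4a4c level than the patrolling monocytes. In the i.v. GFP- female library, 1 of the 44 cells with a Y-linked UMI held an Ms4a1 UMI and none of the other 2631 cells did.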
